A study of Danio rerio with 9 samples.

Results

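Transcript levels in wild-type Tuebingen zebrafish, taken as whole embryos, were compared between embryos kept in 50 µg/L pentachlorophenol and embryos kept in deionized water, across all probe sets of the Affymetrix array that were not manufacturer's controls. The comparison held 6 of the 9 arrays of the series, 3 labelled 50 µg/L and 3 labelled as the water control, and the remaining 3 arrays came from embryos at 20 µg/L. Eggs collected over 30 min at 25 °C went into the solutions, and gastrulas of about 8 h were picked by eye before RNA was taken. Per the labels, control and exposed embryos shared strain, genotype, temperature and the stage aimed at, and differed in the solution. The labels number the arrays of a group 1 to 3 and call them biological replicates. They give neither the number of embryos in a sample nor the clutch, so every p-value reflects the spread between the samples at hand, which may be technical. Values of 3 arrays are given below in the order of these numbers, to which the labels give no further meaning. The arrays numbered 3 carry more decimals in the deposited table than the others, a possible export batch.

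Pentachlorophenol is a chlorinated phenol used as a biocide. It carries protons across the inner mitochondrial membrane and so uncouples respiration from ATP synthesis. Cells that cannot meet their need for ATP by respiration rely more on glycolysis, and when oxygen is short the transcription factor HIF raises glycolytic and other genes. The zebrafish egg also carries a large store of RNA made in the oocyte, which is cleared in steps around and after the onset of zygotic transcription. By the gastrula stage the embryo's own genes set up the germ layers through Nodal, BMP, Wnt and FGF signals.

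Each array gave 1 signal per probe set on a linear scale, which the authors had scaled so that every array had nearly the same trimmed mean (500.1 or 500.2). Median signals ran from 97.9 to 151.9, and those of the 50 µg/L arrays (141.8 to 151.9) were above those of the water arrays (111.7 to 128.8). Water replicate 3 stood apart. Its median Spearman correlation with the other arrays was 0.869, against 0.912 to 0.929 for the rest, and its tag control probe sets, which the manufacturer adds, had the highest level (113.8, against 50.6 to 82.6). This tag control level, the 95th percentile of 17 probe sets on each array, served as the bound of background, and 53.2% to 70% of probe sets were above it. Precision is limited by the number of arrays.

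The stage was checked against marker genes. Of 14 measured gastrula markers, among them tbxta, gsc, sox32 and bmp2b, 12 were above the tag control level in all water arrays and 14 in all exposed arrays. Their summed signal was 45496 to 55875 in water and 63794 to 74495 at 50 µg/L. The 8 segmentation-stage markers were dim, with sums of 455 to 704 in water and 237 to 317 at 50 µg/L. Of these 8, 1 was above the tag control level in all water arrays and 0 in all exposed arrays. In no water array was myog, mylpfa or egr2b above that level, while myod1 was above it in 2 of 3. The sum of 9 measured oocyte markers was 2922 to 4715 in water and 13649 to 28801 at 50 µg/L. Of these 9 markers, 7 are among the genes that passed limma's test upward below, so their sum restates those results and is no separate check. The 7 enveloping layer markers, chiefly keratins, had sums of 107875 to 129700 and 107983 to 120187, which overlapped. Germ cell markers summed to 1211 to 1748 and to 1879 to 2611, which did not overlap. Those of the yolk syncytial layer summed to 1259 to 2008 and to 2512 to 3221, of which hnf4a made up most at 50 µg/L, while the 4 markers had a median log2 change of -0.37. In RNA of whole embryos, fewer cells of a type and less RNA per cell cannot be told apart. Whether a difference in stage or in cell types had a part in the results was not tested.

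At 50 µg/L, 277 of 15502 probe sets (1.79%) passed limma's test at an adjusted p of 0.05, and such probe sets are called here. Of these, 221 (1.43% of all) were higher than in water and 56 (0.361%) lower, and none of the 277 had overlapping groups. The median log2 change of the higher ones was 1.99 and that of the lower ones was -1.36, while the quartiles over all probe sets were -0.45, 0.04 and 0.58. With the brightest probe set standing for each of 8793 named genes, 167 genes were higher (1.9%) and 40 lower (0.455%). Groups that did not overlap were far more common than calls. The exposed arrays were all above the water arrays in 13.3% of probe sets and 14.8% of genes, and all below them in 8.61% and 9.8%. An unadjusted p under 0.05 was reached by 1065 genes upward (12.1%) and 647 downward (7.36%), and the counts at that level below are to be read against these shares. The gene lists and families below were chosen with earlier results of these data known. Their shares beside those of all genes are thus description only, and no list was tested.

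Calls were spread unevenly over the range of signal, as the plot of change against signal shows. Probe sets were split by mean signal into 5 bins of equal size. In the dimmest bin, with mean signals up to 22.6, 1 was called higher and 2 lower, and the median standard error of the log2 change was 0.97. In the brightest bin, from a signal of 698.8 upward, 60 were higher and 38 lower, with a median standard error of 0.28. The bin below it, with signals from 209.7 to 698, held 98 of the higher calls and 12 of the lower ones. Most falls thus lay in the brightest bin, and the rises were spread over the 3 upper bins. Of the 221 higher probe sets, 17 were under the tag control level in all 3 water arrays and 61 in 1 or 2 of them. For most named genes of this kind the fold is given with each dim value set to its array's tag control level, and where all arrays of the lower group were under that level it is written as "at least". A log2 change of a dim gene is on the log2(signal + 1) scale and is no bound.

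**Figure D1:**
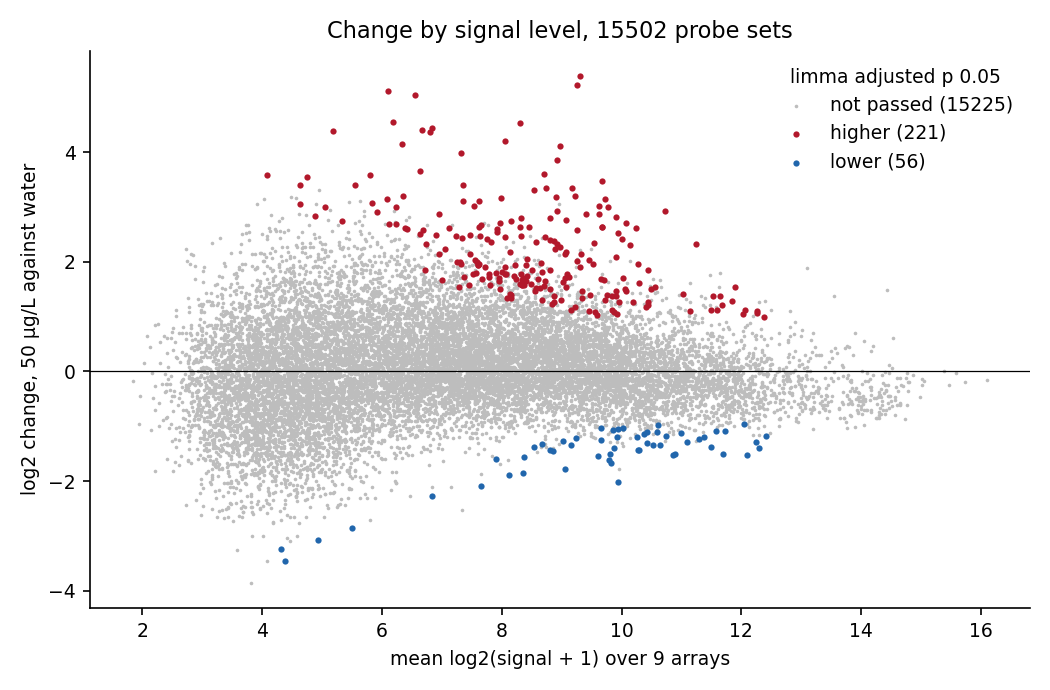
Log2 change at 50 µg/L against water (vertical axis) by mean log2(signal + 1) over 9 arrays (horizontal axis), 1 point per probe set, 15502 in all. The 221 probe sets called higher (red) spread over middle and high signals, and the 56 called lower (blue) lie mostly at high signals.

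Among the calls, gapdhs, egln3 and pfkfb3 had the largest log2 changes (5.39, 5.23 and 5.12). They are genes of glycolysis or of the response to low oxygen. Other steep rises were of neither group, such as zgc:64022 (5.05), ccnp (4.54) and btg4 (4.2). With dim values raised, zgc:64022 rose 7.7-fold and pfkfb3 at least 6.15-fold, beside 17.8-fold for btg4. Of 35 measured genes of glycolysis and glucose uptake, 10 rose (28.6%), 0 fell and 25 did not pass, against 1.9% higher and 0.455% lower of all genes. Their median log2 change was 0.66, against 0.06 over all genes. It was 0.33 when the probe sets of a gene were averaged and 0.41 with median centring. In 40% of the 35 genes the exposed arrays were all above the water arrays, against 14.8% of all genes. Of 25 hypoxia response genes, 3 rose (12%), 0 fell and 22 did not pass, with a median of 1.01 and 44% without overlap upward. An unadjusted p under 0.05 was reached upward by 15 and 12 genes of these lists, and downward by 1 in each. The lists share members, and pfkfb3 is among the calls of both.

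The gene gapdhs encodes a glyceraldehyde-3-phosphate dehydrogenase that is best known from sperm in mammals. Its signal was 87.8, 118 and 175 in water and 7680, 4782 and 3716 at 50 µg/L. The lowest exposed array was far above the highest water array, and the log2 change was 5.39 (SE 0.78, limma adjusted p = 0.0054). The main gene of this enzyme, gapdh, had 11460, 7929 and 7489 in water and 9669, 6340 and 6093 at 50 µg/L. Those groups overlapped (log2 change -0.29, adjusted p = 0.642).

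The oxygen-sensing prolyl hydroxylase gene egln3, a HIF target in mammals, had signals of 138, 59.5 and 173 in water. At 50 µg/L they were 5966, 5991 and 2147, and the log2 change was 5.23 (SE 0.76, limma adjusted p = 0.0054). Replicates 1 and 2 were nearly equal here and replicate 3 lower, still above all water arrays. The gene pfkfb3 encodes the enzyme that makes fructose-2,6-bisphosphate, an activator of glycolysis. It lay below the tag control level on every water array (33.3, 3.5 and 10.9) and had 574, 714 and 185 at 50 µg/L, at least 6.15-fold higher (limma adjusted p = 0.027). A second probe set of pfkfb3 did not pass (2.53, adjusted p = 0.144). Its relative pfkfb4b, bright in water with a mean of 5089, had -0.99 without passing (adjusted p = 0.0646).

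Genes for enzymes at several other steps of the pathway were called higher too. Near its start, the glucose-6-phosphate isomerase gene gpia went from 283, 428 and 395 to 2675, 1952 and 1221, a rise of 2.35 on the log2 scale (SE 0.35, limma adjusted p = 0.00623). The aldolase gene aldocb, near background in water at 8.1, 59.9 and 23.3, reached 640, 411 and 282, which is 5.92-fold with dim values raised (limma adjusted p = 0.027). Its second probe set was called too, with a log2 change of 4.56. In both genes every exposed array was above every water array.

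Below the aldolase step, the phosphoglycerate kinase gene pgk1 had 61.2, 101 and 97 in water and 733, 896 and 498 at 50 µg/L (log2 change 3.02, and 7.68-fold after dim values were raised, limma adjusted p = 0.0292). A second probe set of pgk1, dim in both groups, had 0.22 and did not pass (adjusted p = 0.929). The enolase gene eno1a had 152, 239 and 111 in water and 2354, 1249 and 1490 at 50 µg/L (3.35, adjusted p = 0.00772). The mutase gene pgam1a rose by 2.4 and the pyruvate kinase gene pkma by 1.78 (adjusted p = 0.043 and 0.0277). On their called probe sets these 4 genes were each dimmer in water than at 50 µg/L on every array.

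The last steps make and export lactate. The lactate dehydrogenase gene ldha had 20, 61.5 and 107 in water, 2 of them under the tag control level, and 1068, 1835 and 283 at 50 µg/L, or 11.5-fold with dim values raised (limma adjusted p = 0.0273). The monocarboxylate transporter gene slc16a3b, whose mammalian counterpart carries lactate out of cells, went from 169, 486 and 338 to 3191, 2213 and 1563 (log2 change 2.87, SE 0.44, adjusted p = 0.00642). Exposed replicate 3 was the lowest of its group for both.

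Paralogs of these enzymes gave other values. The called gpia, aldocb and eno1a had partners gpib, aldoca and eno1b that were dim in both groups (mean signals of 20.8, 34.9 and 46.8 in water). Bright paralogs that did not pass were aldoaa with 0.33 and ldhba with 0.02 (adjusted p = 0.485 and 0.983). The gene tpi1b, of another step of the pathway, had 0.66 and did not pass (adjusted p = 0.199). The hexokinase genes hk1 (-0.39, adjusted p = 0.436) and hk2 (0.1, adjusted p = 0.945) did not pass either. Probe sets of similar paralogs can share hybridisation, which these values cannot separate.

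Of the 3 calls in the hypoxia response list, p4ha1b, a subunit of the collagen prolyl 4-hydroxylase, had the tightest groups. Its signals were 155, 100 and 119 in water and 2076, 1820 and 1528 at 50 µg/L. Its log2 change was 3.86 (SE 0.48, limma adjusted p = 0.00371). The growth factor binding protein gene igfbp1a had 3.05 and just missed the threshold (adjusted p = 0.0536), and so did ddit4, an inhibitor of TOR signalling (2.31, adjusted p = 0.068), and hif1an, which encodes a hydroxylase that restrains HIF (1.44, adjusted p = 0.0685). The HIF subunit gene hif1ab had 2302, 2381 and 2637 in water and 1565, 2385 and 2071 at 50 µg/L, which overlapped (-0.3, adjusted p = 0.601). The angiogenic factor gene vegfaa lay below the tag control level on all 6 arrays.

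Some calls outside the lists encode proteins that act on collagen or glycogen. They were picked after their values were seen, from no list, and show nothing of these groups as such. The lysyl hydroxylase gene plod1a had 316, 99 and 184 in water and 1903, 1372 and 977 at 50 µg/L (log2 change 2.92, limma adjusted p = 0.017). The collagen chaperone gene fkbp10b had 51.7, 26.6 and 10.5 against 158, 175 and 161 (2.69, adjusted p = 0.0296), with 2 of 3 water arrays under the tag control level. In contrast, crtap, part of the collagen prolyl 3-hydroxylation complex, fell by 1.04 on the log2 scale (adjusted p = 0.0435). Of 28 collagen and laminin genes themselves, 0 were called by limma, with an unadjusted p under 0.05 upward in 0 and downward in 1. Among genes for subunits that bring protein phosphatase 1 to glycogen, ppp1r3da rose 4.29-fold with dim values raised and ppp1r3c2b by 2.54 on the log2 scale (adjusted p = 0.0335 and 0.0234). Their relatives ppp1r3ca (0.85), ppp1r3cb (0.95) and ppp1r3b (0.43) did not pass (adjusted p = 0.26, 0.267 and 0.658).

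These calls differed in how they held with single arrays left out. Of the 10 glycolysis calls, 0 remained without 50 µg/L replicate 1, 4 without replicate 2 and 8 without replicate 3 of that group. Without water replicate 1 there were 5, without water replicate 3 there were 9, and 10 without water replicate 2. The list median hardly moved with 50 µg/L replicate 1 left out (0.58), and that of the hypoxia list stayed at 1.01. The call of p4ha1b held without each of the 9 arrays (adjusted p = 0.0495 without 50 µg/L replicate 1), while gapdhs and egln3 then had adjusted p = 0.061. With dim values raised, the glycolysis median was 0.21 and the hypoxia median 0.54, and 7 and 3 members were under the tag control level in all 6 arrays.

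**Figure D2:**
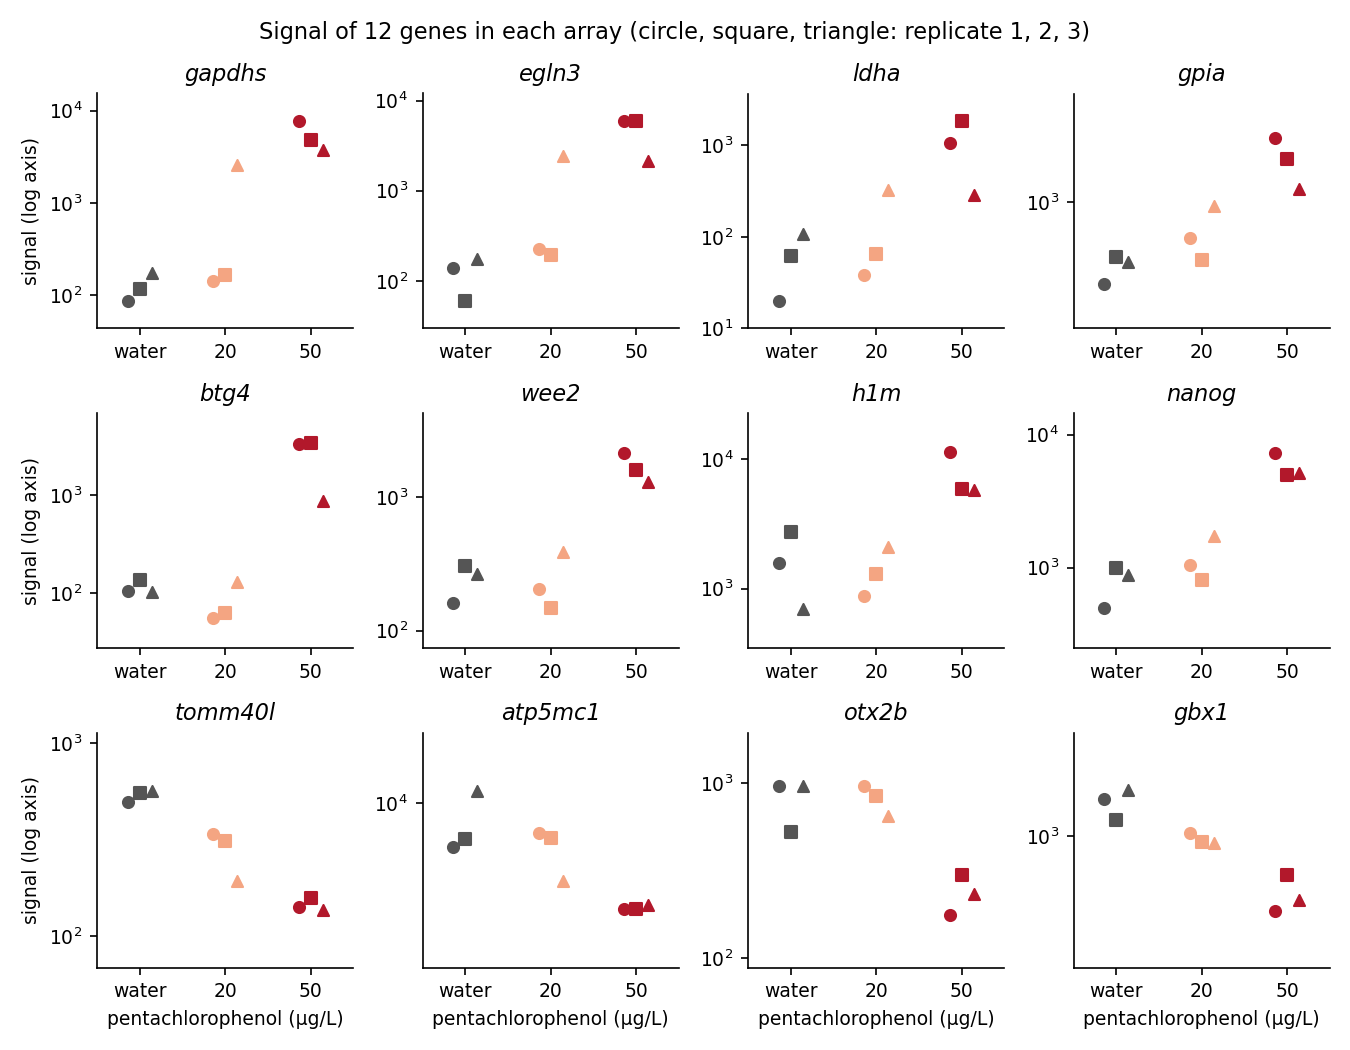
Signal of 12 named genes on a log axis in each of the 9 arrays, by group (water, 20 and 50 µg/L) and replicate number. All 12 genes are called, so the 3 arrays at 50 µg/L lie on one side of the 3 water arrays, as for every called probe set. At 20 µg/L, replicate 3 of gapdhs (2575) and egln3 (2449) lies near the 50 µg/L arrays, far above replicates 1 and 2.

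Maternal transcripts stored by the oocyte were the other large group of rises. Of 40 measured genes, 12 rose (30%, against 1.9% of all genes), 0 fell and 28 did not pass. In 55% of them the exposed arrays were all above the water arrays, against 14.8% of all genes. The median log2 change was 0.99 and 34 of 40 changes were positive. An unadjusted p under 0.05 was reached upward by 22 and downward by 0. As the list was chosen with earlier results of these data known, these shares are no test of it. Part of this list overlaps the cell cycle and germ plasm lists below.

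The largest was btg4, which encodes an adaptor for removal of maternal mRNA. Its signal was 106, 135 and 104 in water and 3250, 3367 and 862 at 50 µg/L, giving 4.2 on the log2 scale (SE 0.49, limma adjusted p = 0.00199), or 17.8-fold with dim values raised. The water arrays lay close together and exposed replicate 3 was well below the other two. The claudin gene cldnd had 332, 447 and 422 in water and 6374, 2598 and 2654 at 50 µg/L (3.15, SE 0.37, adjusted p = 0.00199). The linker histone gene h1m, the form that the egg uses, went from 1590, 2741 and 694 to 11349, 5857 and 5745 (2.33, SE 0.45, adjusted p = 0.0205). Its water arrays varied more than those of btg4 or cldnd, without reaching the exposed ones.

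Several of the 12 act on stored mRNA or on the meiotic cell cycle. The zinc finger gene cth1 had 181, 221 and 491 in water and 2589, 1732 and 1402 at 50 µg/L (2.77, limma adjusted p = 0.0054). The egg RNA-binding genes zar1 and zar1l rose by 1.3 and 2.23, and pabpn1l, a poly(A)-binding protein of the egg, by 1.86 (adjusted p = 0.043, 0.0339 and 0.0234). The CDK1-inhibiting kinase gene wee2 had 161, 306 and 265 against 2138, 1593 and 1308 (2.8, adjusted p = 0.00371), and 3 more of its 5 probe sets were called, with 3.4, 4.45 and 4.41. The importin gene kpna7 was under the tag control level in 2 of 3 water arrays and rose 6.18-fold with dim values raised. The eggshell genes zp3b (0.72) and zp3a.1 (0.54) and the oocyte growth factor gene bmp15 (1.02) did not pass (adjusted p = 0.209, 0.319 and 0.496).

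Further genes known from oocytes and eggs stood among the calls outside the list, and most were picked after their values were seen. The gene gtf3ab, for the transcription factor of 5S RNA genes that is stored in frog oocytes, had 332, 702 and 129 in water and 4470, 4123 and 2284 at 50 µg/L (log2 change 3.48, limma adjusted p = 0.00474). Its second probe set had 2.82. The mRNA-binding gene lsm14b (2.46), the meiotic anaphase inhibitor gene fbxo43 (2.42) and the CDK activator gene spdya (1.55) were also higher, with adjusted p from 0.00704 to 0.0403. The Greatwall kinase gene mastl, which acts on entry into mitosis and meiosis, went from 86, 80.8 and 74.2 to 781, 215 and 564 (2.49, adjusted p = 0.0221), while its other probe set had 0.77 and did not pass. All 3 probe sets of the makorin gene mkrn4 that were called lay between 2.14 and 3.2.

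Of 16 germ plasm and primordial germ cell genes, 3 rose (18.8%, against 1.9% of all genes), 0 fell and 13 did not pass. The median was 0.62. The risers were buc, which builds the oocyte's Balbiani body, was under the tag control level in 2 of 3 water arrays and rose 3.75-fold with dim values raised (limma adjusted p = 0.0234), asz1 of the germ line (1.97, adjusted p = 0.0273), and the chemokine receptor gene cxcr4b, which guides migrating germ cells (2.09, adjusted p = 0.0101). The germ cell genes ddx4, nanos3 and dnd1, which germ cells keep after the maternal store is cleared, had 0.88, 0.55 and 0.69 and did not pass (adjusted p = 0.192, 0.407 and 0.333). For ddx4 the signals were 535, 811 and 299 in water and 693, 1025 and 1148 at 50 µg/L, which overlapped.

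Without 50 µg/L replicate 1, 2 of the 12 oocyte calls remained, those of btg4 and cldnd (adjusted p = 0.04 and 0.037), and 5 and 9 without replicates 2 and 3. Without water replicates 1, 2 and 3 there were 5, 12 and 10. The list median without 50 µg/L replicate 1 was 0.94. Of the 3 germ plasm calls, 0 were then left, and 1 without 50 µg/L replicate 2 or water replicate 1.

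A set of bright genes for mitochondrial respiration and ATP synthase fell. Of 18 ATP synthase genes, 6 fell (33.3%, against 0.455% of all genes), 0 rose and 12 did not pass. Negative changes numbered 17, and the median of the 18 genes was -0.9. The exposed arrays lay all below the water arrays in 77.8% of them, against 9.8% of all genes. Of 28 genes of complexes III and IV, 3 fell (10.7%), 0 rose and 25 did not pass. Their median was -0.78, with 67.9% without overlap downward. Of 39 complex I genes, 1 fell (2.56%), 0 rose and 38 did not pass, with a median of -0.5 and 48.7% without overlap downward. The lists were taken by gene symbol and include assembly factors.

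In the membrane part of ATP synthase, the c-ring gene atp5mc1 had 5911, 6543 and 11449 in water and 2827, 2845 and 2994 at 50 µg/L. The exposed arrays were nearly equal and the log2 change was -1.4 (SE 0.29, limma adjusted p = 0.0281). The small subunit genes atp5md and atp5l fell by 1.52 and 1.35, and the stalk gene atp5pd by 1.2 on the log2 scale (adjusted p = 0.0273, 0.0218 and 0.0204). A second probe set of atp5l, dim in both groups, had -0.83 and did not pass (adjusted p = 0.753). In the catalytic part, the genes atp5f1d and atp5f1e of the central stalk fell by 1.35 and 1.2 (adjusted p = 0.0353 and 0.047), the latter named after its values were seen. The catalytic subunit gene atp5f1b had a log2 change of -0.06 (adjusted p = 0.918), and the inhibitor gene atp5if1b, with 0.44, was the 1 positive member.

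In complexes III and IV, uqcrh, the hinge protein of complex III, went from 7323, 8009 and 8690 to 3099, 3482 and 4018 (log2 change -1.18, SE 0.23, limma adjusted p = 0.0229). The gene cox7a2l, whose product joins complexes III and IV, went from 4042, 5541 and 7087 to 1561, 2250 and 1994 (-1.5, SE 0.3, adjusted p = 0.0253). The subunit gene cox8a fell by 1.24 on the log2 scale (adjusted p = 0.0451). In complex I, ndufa2 fell by 1.3 on the log2 scale (adjusted p = 0.0407). All water arrays of these 4 genes were above all exposed arrays. Against the trend, cox6b1 was dim in water and had 1.91 without passing (adjusted p = 0.0508), and the copper chaperone gene cox17 had 0.96 (adjusted p = 0.141).

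Proteins made in the cytosol enter mitochondria through the TOM and TIM complexes. Of 44 genes of mitochondrial biogenesis, import and uncoupling, 4 fell (9.09%, against 0.455% of all genes), 0 rose and 40 did not pass. Their median was -0.54, and 40.9% were without overlap downward. Over all genes the latter share was 9.8%. The import pore gene tomm40l had 492, 553 and 563 in water and 142, 158 and 137 at 50 µg/L, both groups tight (log2 change -1.88, SE 0.31, limma adjusted p = 0.0101). Its partner tomm40 had 1915, 1960 and 1357 against 489, 725 and 727 (-1.43, adjusted p = 0.0273). The small TIM gene timm8b fell by 1.1 and the co-chaperonin gene hspe1 by 0.96 on the log2 scale (adjusted p = 0.0389 and 0.0354). The chaperonin gene hspd1, whose product works with that of hspe1, had -0.01, and the biogenesis factor genes nrf1 and tfam had 0.63 and 0.67 (adjusted p = 0.987, 0.159 and 0.541). For ucp2, an uncoupling protein gene, signals were 9656, 10351 and 13283 in water and 6222, 6393 and 7502 at 50 µg/L, without overlap, and did not pass (-0.72, adjusted p = 0.161).

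Of 31 genes of pyruvate dehydrogenase and the TCA cycle, 1 fell (3.23%, against 0.455% of all genes), 0 rose and 30 did not pass. The list median was 0.14. The gene that fell was pdhb, a subunit of pyruvate dehydrogenase, with 1804, 1724 and 2362 in water and 762, 603 and 802 at 50 µg/L (log2 change -1.44, limma adjusted p = 0.0234). The 7 pentose phosphate genes had a median of -0.66, or -0.33 with the probe sets of a gene averaged. Of them 57.1% were without overlap downward, against 9.8% of all genes. None of these was called by limma, and 4 had an unadjusted p under 0.05.

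Without 50 µg/L replicate 1, 0 of the calls of ATP synthase, the respiratory complexes, mitochondrial import and pdhb remained, and the medians of ATP synthase and of complexes III and IV were -0.88 and -0.69. Of the 6 ATP synthase calls, 2 and 0 remained without 50 µg/L replicates 2 and 3, 1 without water replicate 1, 5 without water replicate 2 and 4 without water replicate 3. Of the 4 import calls, 1 remained without each of 50 µg/L replicate 2, replicate 3 and water replicate 1. The 3 calls of complexes III and IV kept 0, 1, 1 and 2 without 50 µg/L replicates 2 and 3 and water replicates 1 and 3. The call of ndufa2 remained only without water replicate 1 or 20 µg/L replicate 3 among the 9 arrays left out, and that of pdhb was also lost without 50 µg/L replicate 2 or water replicate 1.

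Genes of the cytosolic ribosome gave 0 calls. All 75 cytosolic ribosomal protein genes had negative log2 changes, from -0.97 for rps16 to -0.06 for rpl5b, with a median of -0.61. None passed by limma, and 38 had an unadjusted p under 0.05, all of them lower. In 76% of the 75 genes the exposed arrays lay all below the water arrays, against 9.8% of all genes. Their median difference from the water mean was -0.61, -0.54 and -0.6 in the exposed arrays and -0.07, -0.17 and 0.25 in the water arrays. These are among the brightest genes of the array, with mean signals in water of 3777 to 38494. The brightest bin of probe sets as a whole had a median log2 change of -0.11, and 1.23% of it was called lower, against 0.361% of all probe sets. Under quantile normalization, which equalises the top of the range, the median of the list was -0.2, and with median centring it was -0.87.

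Other parts of protein synthesis and folding lay on the same side. The median log2 change was -0.33 for 59 mitochondrial ribosomal protein genes and -0.2 for 64 translation initiation and elongation factors. It was -0.37 for 22 aminoacyl-tRNA synthetases. In these 3 families 0 genes were called by limma, while 17, 13 and 6 had an unadjusted p under 0.05 downward and 1, 2 and 0 upward. All 8 genes of the CCT chaperonin, which folds actin and tubulin, had negative changes, from -0.92 for cct4 to -0.21 for cct2, with 0 called and 5 at an unadjusted p under 0.05. Of 50 proteasome genes taken by symbol, 45 had negative changes and 1 fell (2%, against 0.455% of all genes). It was the core subunit gene psmb2 (4022, 3920 and 5522 against 2216, 2279 and 1784, log2 change -1.09, limma adjusted p = 0.0426). The proteasome subunit gene sem1, which that family misses, fell by 1.32 on the log2 scale (adjusted p = 0.0383). The Hsp40 gene dnaja2a fell by 1.28 on the log2 scale (adjusted p = 0.0319), the 1 call of 33 heat shock and chaperone genes (3.03%).

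Of 58 ribosome biogenesis and nucleolar genes, 3 fell (5.17%, against 0.455% of all genes), 0 rose and 55 did not pass. The median was -0.09. The transcription factor gene mycn, a driver of ribosome production in many cells, had 1844, 1570 and 2271 in water and 776, 877 and 904 at 50 µg/L (log2 change -1.14, limma adjusted p = 0.0354). The pre-ribosome factor gene bysl fell by 1.13 and the nucleolar GTPase gene gnl3l by 1.05 on the log2 scale (adjusted p = 0.0427 and 0.0483). A second probe set of mycn did not pass (-0.65, adjusted p = 0.362). Of 97 splicing and nuclear RNA-binding genes, 2 rose (2.06%, near the 1.9% of all genes) and 0 fell, although 67 changes were negative. The risers were lsm14b, described above, and lsm11, which acts in histone mRNA processing and whose second probe set had 1.09 without passing. None of the falls in this paragraph or of psmb2 and dnaja2a held without 50 µg/L replicates 1, 2 or 3 or without water replicate 1.

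**Figure D3:**
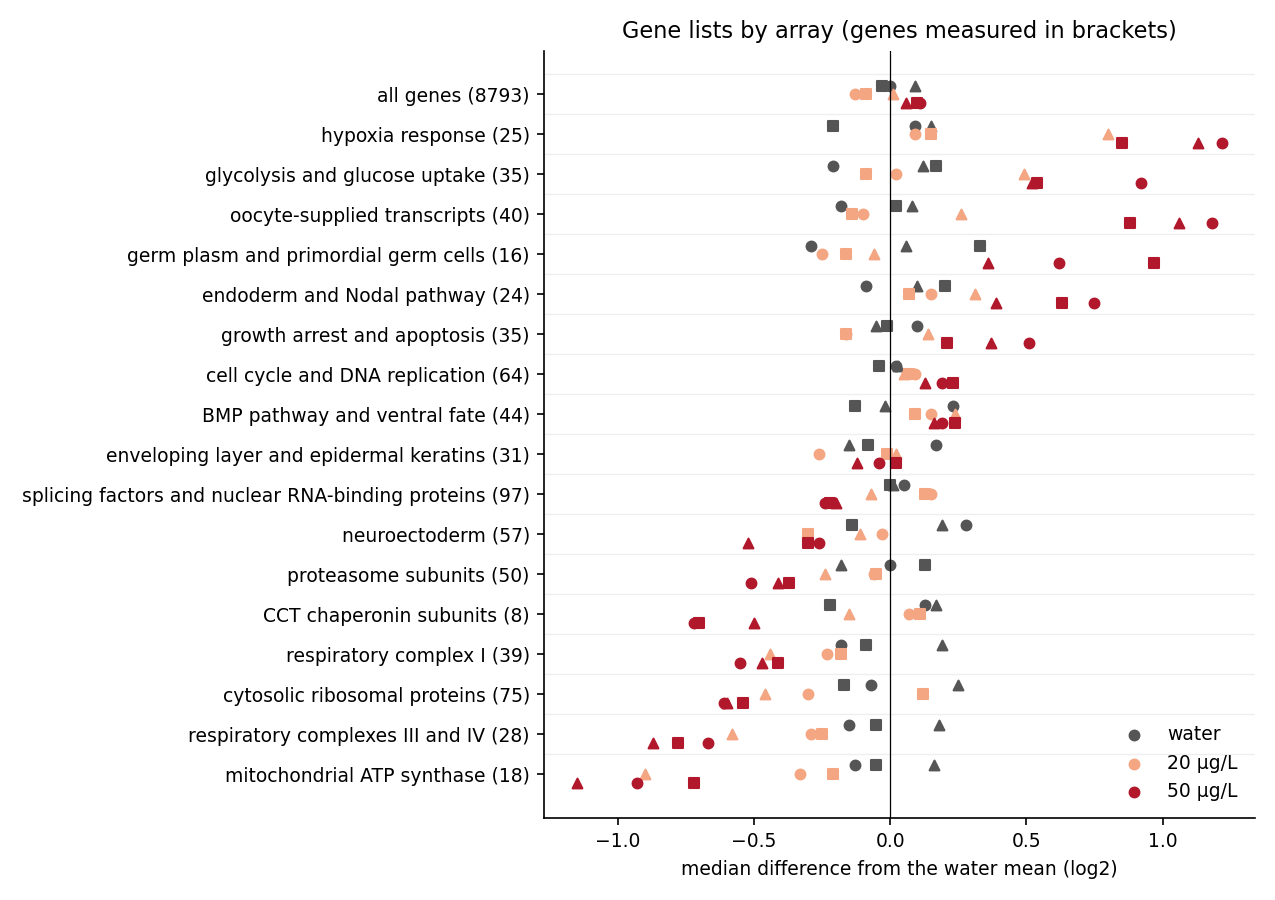
Median log2 difference from the water mean over the genes of 18 lists (horizontal axis), for each array of the water, 20 and 50 µg/L groups (circle, square and triangle for replicates 1, 2 and 3). The 50 µg/L arrays lie right of the water arrays for glycolysis, hypoxia response and oocyte-supplied transcripts and left of them for ribosomal proteins, respiratory complexes and ATP synthase, while the medians of all 8793 genes stay between -0.13 and 0.11.

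**Figure D4:**
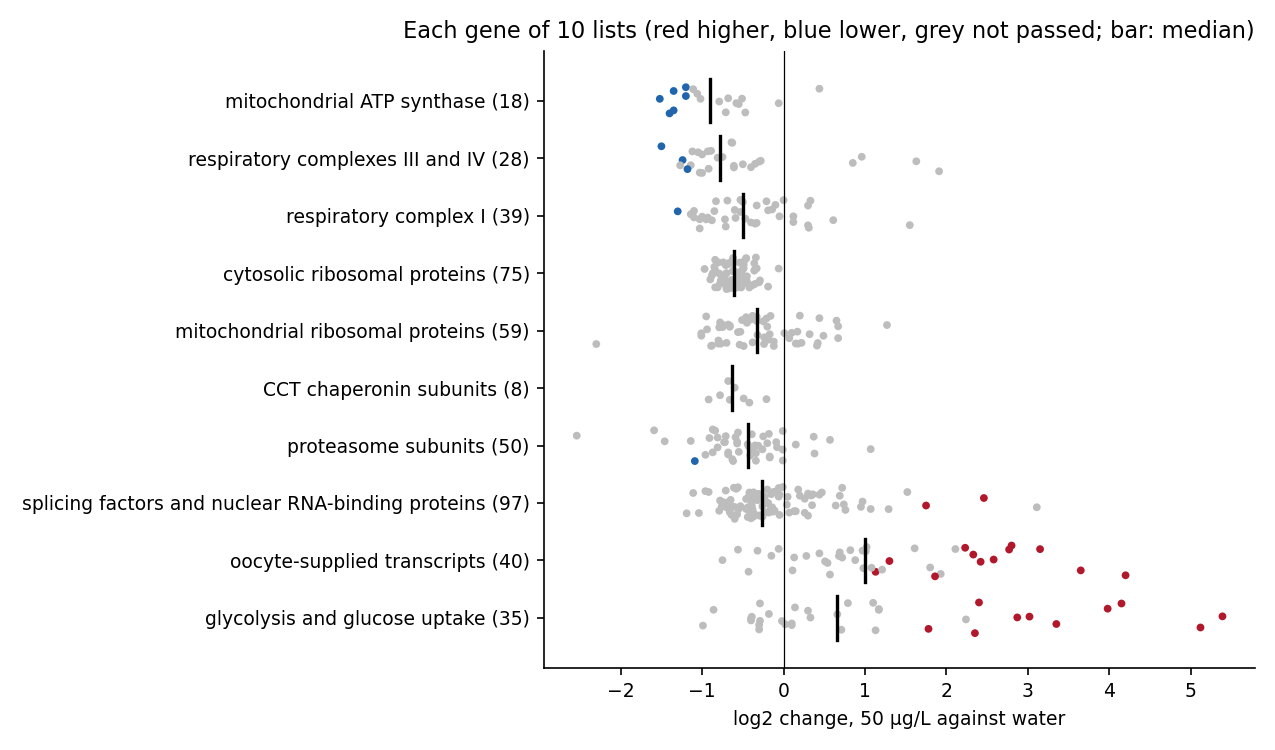
Log2 change at 50 µg/L against water (horizontal axis) of each gene in 10 lists, with the list median as a black bar. Cytosolic ribosomal proteins (75 genes) form a narrow band below 0 with 0 called, while the lists of glycolysis and oocyte-supplied transcripts spread upward with 10 and 12 called (red).

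Among genes that pattern the gastrula, calls in the neuroectoderm were falls and those of the Nodal pathway were rises. Of 57 neuroectoderm genes, 2 fell (3.51%, against 0.455% of all genes), 0 rose and 55 did not pass, with a median of -0.36 and 40 negative changes. The homeobox gene otx2b, which marks the anterior neural plate, had 962, 524 and 972 in water and 176, 299 and 232 at 50 µg/L (log2 change -1.77, SE 0.32, limma adjusted p = 0.0145). The homeobox gene gbx1 of the adjoining hindbrain territory had 1565, 1220 and 1756 against 402, 619 and 461 (-1.62, SE 0.25, adjusted p = 0.00752). Their domains meet at the border of midbrain and hindbrain, and the exposed arrays were below all water arrays for both. A further gene of neural territories, sp8b, fell by 1.38 on the log2 scale (adjusted p = 0.0273).

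Of 24 endoderm and Nodal pathway genes, 4 rose (16.7%, against 1.9% of all genes), 0 fell and 20 did not pass, with a median of 0.58 and 22 positive changes. The Nodal-induced homeobox gene mixl1 had 175, 219 and 103 in water and 1326, 1070 and 668 at 50 µg/L (log2 change 2.63, SE 0.39, limma adjusted p = 0.00591). The Nodal partner gene gdf3, whose product is supplied by the mother, had 2014, 2920 and 2381 against 6951, 4758 and 5280 (1.21, adjusted p = 0.0273). The chemokine receptor genes cxcr4a and cxcr4b, active in endoderm and germ cells, rose by 1.28 and 2.09. The Nodal ligand genes ndr1 (0.43) and ndr2 (0.32) and the endoderm genes sox32 (0.68) and sox17 (0.15) did not pass (adjusted p = 0.841, 0.733, 0.272 and 0.89). The signals of sox32 were 7213, 8220 and 3454 in water and 11182, 8898 and 8408 at 50 µg/L, without overlap.

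Of 16 factors of zygotic genome activation, 2 rose (12.5%, against 1.9% of all genes), 1 fell (6.25%, against 0.455%) and 13 did not pass. The fall was that of mycn, already counted among the ribosome biogenesis genes. The rises were nanog and vent, and vent is also counted among the BMP pathway genes below. The gene nanog had 496, 989 and 877 in water and 7240, 4964 and 5178 at 50 µg/L (log2 change 2.92, SE 0.32, limma adjusted p = 0.00199). Its partner pou5f3 had 14413, 15078 and 18407 against 18509, 11337 and 19125, which overlapped (0, adjusted p = 0.999), and sox19b had 0.18 on its brighter probe set and 1.36 on the other, neither of which passed (adjusted p = 0.793 and 0.119). The ventral homeobox gene vent rose by 2.37 (limma adjusted p = 0.0273), the 1 call of 44 BMP pathway and ventral genes (2.27%, near the 1.9% of all genes). Its second probe set did not pass (1.79, adjusted p = 0.094). The ligand gene bmp4 had 2.05 and just missed the threshold (adjusted p = 0.0534), while bmp2b had -0.05. On the dorsal side the organizer gene gsc had 1009, 1341 and 709 in water and 3341, 3863 and 1723 at 50 µg/L (1.51, adjusted p = 0.0449). It was the 1 riser of 31 organizer and axial genes (3.23%, against 1.9% of all genes), and otx2b the 1 that fell (3.23%, against 0.455%). The organizer's BMP antagonist gene chrd (0.62) and the notochord gene tbxta (0.6) did not pass (adjusted p = 0.453 and 0.348).

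Of the remaining embryonic lists, FGF signalling had 1 riser of 26, the phosphatase gene dusp1 (1.13, limma adjusted p = 0.0388), and the yolk syncytial layer list had 1 of 30, hnf4a (1.62, adjusted p = 0.0381). These shares, 3.85% and 3.33%, stand beside 1.9% of all genes. A second probe set of hnf4a had 0.74 and did not pass (adjusted p = 0.515). Outside the lists, snai2, a repressor known from epithelial-mesenchymal transition, had 245, 408 and 338 in water and 1387, 1585 and 1360 at 50 µg/L (2.15, SE 0.28, adjusted p = 0.00371). That gene was picked after its values were seen. The lists of Wnt pathway, Notch, retinoic acid, enveloping layer, early muscle and segmentation genes held 34, 31, 22, 31, 29 and 29 measured genes. They had 0 calls by limma. An unadjusted p under 0.05 was reached upward by 1, 1, 0, 0, 3 and 1 of them and downward by 3, 3, 2, 4, 4 and 3. Of all genes, 12.1% reached that level upward and 7.36% downward. The keratin gene krt4 had 23451, 20244 and 20489 in water and 22741, 18762 and 19752 at 50 µg/L, which overlapped (-0.07, adjusted p = 0.914).

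Without 50 µg/L replicate 1, of the patterning genes called above nanog kept its call (adjusted p = 0.037). The 4 endoderm calls then numbered 0, and 2 without each of water replicate 1 and 50 µg/L replicates 2 and 3. The call of otx2b was also lost without water replicate 1, and that of gsc without water replicate 1 or 3, 20 µg/L replicate 1 or 2, or 50 µg/L replicate 2. The call of vent was lost without each 50 µg/L array, and that of hnf4a without each of them, water replicates 1 and 3 and 20 µg/L replicates 1 and 2. The call of dusp1 was lost without the same arrays as that of gsc. With median centring, 2 of the 4 endoderm calls remained, and the calls of gsc, hnf4a and dusp1 were lost.

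Several stress responses were examined. Of 37 genes of endoplasmic reticulum stress and the amino acid response, 3 rose (8.11%, against 1.9% of all genes), 1 fell (2.7%, against 0.455%) and 33 did not pass, and 32.4% had exposed arrays all above the water arrays, against 14.8% of all genes. The phosphatase regulator gene ppp1r15a, which reverses the translation block of stressed cells, had 272, 150 and 223 in water and 1598, 866 and 938 at 50 µg/L (log2 change 2.38, limma adjusted p = 0.0307). Another of its 4 probe sets was called, with 3.16. The chaperone genes hsp90b1 and hyou1 rose by 1.86 and 1.38 (adjusted p = 0.0352 and 0.0383), and hspa5 had 1.24 without passing (adjusted p = 0.0624). The mitochondrial folate enzyme gene mthfd2 went from 787, 518 and 713 to 164, 153 and 238 (-1.86, adjusted p = 0.0122). The related stress factor genes atf4a (-0.6) and xbp1 (-0.42) did not pass (adjusted p = 0.488 and 0.485).

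Of 30 glutathione and antioxidant genes, 17 xenobiotic response genes and 47 cytochrome P450 genes, 0 were called by limma. An unadjusted p under 0.05 was reached upward by 5, 0 and 4 and downward by 5, 0 and 1. The dioxin-responsive gene cyp1a had 37.5, 65.4 and 41.7 in water and 156, 58.5 and 78.6 at 50 µg/L, which overlapped (0.92, limma adjusted p = 0.483). The glutathione synthesis gene gclc had 1.08 without passing (adjusted p = 0.066).

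In the list of growth arrest and apoptosis, with 35 genes, 3 rose (8.57%, against 1.9% of all genes), 0 fell and 32 did not pass. The median was 0.47. The cyclin G gene ccng2, linked to growth arrest, had 166, 200 and 129 in water and 963, 856 and 874 at 50 µg/L (log2 change 2.46, SE 0.41, limma adjusted p = 0.0101), and its other probe set, of equal brightness, did not pass (1.11, adjusted p = 0.116). The initiator caspase gene casp9 had 151, 117 and 135 against 438, 484 and 410 (1.72, SE 0.31, adjusted p = 0.0142). The survivin gene birc5b, which acts in mitosis and against apoptosis, went from 188, 481 and 278 to 2579, 1465 and 765 (2.28, adjusted p = 0.018), while its paralog birc5a had 0.16. The p53 target mdm2 had 1.08 without passing (adjusted p = 0.0927).

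In the cell cycle and DNA replication list, with 64 genes, 6 rose (9.38%, against 1.9% of all genes), 0 fell and 58 did not pass. The median was 0.16. Of these rises, wee2, ccna1 and fbxo5 are also counted in the list of oocyte-supplied transcripts. Besides wee2, the egg cyclin gene ccna1 had 439, 967 and 649 in water and 4550, 3887 and 2379 at 50 µg/L (log2 change 2.42, SE 0.38, limma adjusted p = 0.00772). The inhibitor of the anaphase-promoting complex fbxo5 rose by 1.13, the replication origin gene orc1 by 1.4, gins3 of the replication helicase by 1.26 and the mitotic kinase gene aurka by 1.05 (adjusted p = 0.026, 0.0354, 0.0487 and 0.0461). The last pair was named after their values were seen. The related cyclin gene ccna2 (0.06) and the kinase gene cdk1 (-0.08) did not pass, nor did the replication clamp gene pcna (-0.85), with adjusted p = 0.934, 0.906 and 0.114. Of 27 cyclin and cyclin-dependent kinase genes, 4 rose (14.8%, against 1.9% of all genes) and 0 fell. These 4 include ccna1 and the ccng2 of the growth arrest list, both already counted. Among them ccnp had 10.1, 271 and 198 in water and 2523, 2106 and 1417 at 50 µg/L, 13.9-fold with dim values raised, and ccnb1l was at least 4.0-fold higher (adjusted p = 0.0234 and 0.0104).

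Of 129 solute carrier genes, 3 rose, 1 fell and 125 did not pass. Besides slc16a3b, the amino acid transporter gene slc38a5b had 695, 775 and 606 in water and 1556, 1923 and 1505 at 50 µg/L (log2 change 1.26, limma adjusted p = 0.0194), and the monocarboxylate transporter gene slc16a9a rose 2.63-fold with dim values raised (adjusted p = 0.047), a call that was lost under quantile normalization and median centring. The urea transporter gene slc14a2, 200, 285 and 287 in water, lay below the tag control level on every exposed array and was at least 3.38-fold lower (adjusted p = 0.0187). The shares of solute carriers called (2.33% higher and 0.775% lower) were near those of all genes (1.9% and 0.455%).

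Without 50 µg/L replicate 1, 0 of the calls in the stress, growth arrest, cell cycle, cyclin and solute carrier lists remained. Without replicate 2 of that group 1 of 3, 1 of 3, 2 of 6, 2 of 4 and 1 of 3 rises remained, and without water replicate 1 there were 0, 2, 2, 4 and 2. The 3 rises of the stress list also numbered 0 without 50 µg/L replicate 3 and 1 without each of water replicate 2 and 20 µg/L replicates 1 and 2. Neither fall of mthfd2 and slc14a2 remained without 50 µg/L replicate 2. With median centring 1 of 3, 3 of 3, 2 of 6, 4 of 4 and 1 of 3 rises of these lists remained, in the order above.

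Outside the lists, the syntaxin gene stx11a had 18.4, 78.2 and 12.4 in water and 718, 600 and 420 at 50 µg/L, 7.29-fold with dim values raised (limma adjusted p = 0.00371). The uncharacterised gene zgc:113424 had 78.2, 527 and 171 against 4450, 6036 and 1368 (log2 change 4.11, adjusted p = 0.0074). The peptidase gene nln, at least 1.64-fold higher, passed on the log2(signal + 1) scale (limma adjusted p = 0.0339) and did not pass with dim values raised. The scaffold gene dlg1a, whose water arrays of 17.9, 13.8 and 12.9 were all near background, was at least 2.75-fold higher (adjusted p = 0.0054), although its log2 change on dim values was 3.59.

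Among the falls, the histone-binding gene rbbp4 had 7334, 6944 and 5878 in water and 1635, 2618 and 2873 at 50 µg/L (log2 change -1.53, SE 0.28, limma adjusted p = 0.0158). The ubiquitin-conjugating enzyme gene ube2e2 had 3012, 1830 and 4274 against 864, 1098 and 1091 (-1.5, adjusted p = 0.023). The genes sap30bp and cdkn2aipnl fell by 1.55 and 1.29 on the log2 scale (adjusted p = 0.0379 and 0.0322). The coatomer gene copb2 fell by 1.4 on one probe set (adjusted p = 0.0477), while its other probe sets had -0.17 and -0.3 and did not pass. In the same way arglu1b had -1.37 on the called probe set and 0.33 on the other.

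A few more calls were picked after their values were seen. The kinase gene pim2 had 471, 702 and 469 in water and 4567, 2727 and 2829 at 50 µg/L (log2 change 2.61, SE 0.3, limma adjusted p = 0.00199). The ubiquitin ligase adaptor gene wsb1, a HIF target in mammals, had 686, 395 and 381 against 2281, 2466 and 2218 (2.3, SE 0.31, adjusted p = 0.00371). The cystathionine gamma-lyase gene cth fell by 1.25 on the log2 scale (adjusted p = 0.0302).

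Of 50 genes called higher that had several probe sets, 9 had at least 2 called and 7 had all called. Of 8 such genes called lower, 0 had a second one called. No gene was called in both directions. These counts are by probe set, so a gene may be called on one that is not its brightest.

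At 20 µg/L, 0 of 15502 probe sets (0%) were called by limma against the same water arrays, and 1138 had an unadjusted p under 0.05, against 2736 at 50 µg/L. The comparisons share their control, so the values are set side by side only. Over the probe sets called higher at 50 µg/L the median log2 change was 1.99 there and 0.45 at 20 µg/L, and over those called lower it was -1.36 and -0.5. The 3 arrays at 20 µg/L were unlike each other. For the probe sets called higher, the median difference from the water mean was 0.31, 0.31 and 0.82 in replicates 1, 2 and 3, and for those called lower it was -0.4, -0.42 and -0.84.

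The gene gapdhs shows this best, with 143, 168 and 2575 at 20 µg/L, and egln3 had 228, 193 and 2449. The gene p4ha1b was above all water arrays in each, with 341, 270 and 1468. Replicate 3 was also the highest for the oocyte transcripts btg4 and cldnd, and a difference between the gene groups in this respect was not tested. For btg4 the signals at 20 µg/L were 55.6, 63.3 and 129, beside 106, 135 and 104 in water, so replicate 3 lay within the water range. For cldnd they were 362, 325 and 671, beside 332, 447 and 422 in water. The median of the glycolysis list was 0.02, -0.09 and 0.49 in the 3 arrays, and that of the oocyte list -0.1, -0.14 and 0.26. ATP synthase had -0.33, -0.21 and -0.9. The fit to all 9 arrays counts this spread within the 20 µg/L group as error, and without 20 µg/L replicate 3 there were 255 higher and 61 lower calls at 50 µg/L.

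The number of calls rested on single arrays, as the plot of calls by array left out shows. Without 50 µg/L replicate 1 it dropped to 8 higher and 0 lower, with 1155 and 696 probe sets at an unadjusted p under 0.05. That array was the highest of its group for 136 of the 221 higher calls and the lowest for 34 of the 56 lower ones. Without replicates 2 and 3 of the group there were 52 and 131 higher and 7 and 17 lower calls. Without water replicates 1, 2 and 3 there were 105, 389 and 222 higher and 13, 143 and 46 lower. Without 20 µg/L replicates 1 and 2 there were 155 and 145 higher and 30 and 27 lower. The split between rises and falls depended on the scaling too. As deposited 79.8% of the calls were higher, under quantile normalization 68.8%, and with the arrays centred on their medians 55.2%, as the median change of all probe sets went from 0.04 to -0.05 and -0.21. With that shift, centring took the medians of germ plasm, endoderm and Nodal, and growth arrest genes to 0.37, 0.33 and 0.22. It turned those of the cell cycle and TCA lists to -0.1 and -0.11, and took those of neuroectoderm and complex I to -0.61 and -0.76. Quantile normalization turned the TCA median to -0.05, and raising dim values took that of neuroectoderm to -0.08. Of the 167 genes called higher, 115 kept the call under quantile normalization and 83 with median centring, and of the 40 called lower, 35 and 40.

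**Figure D5:**
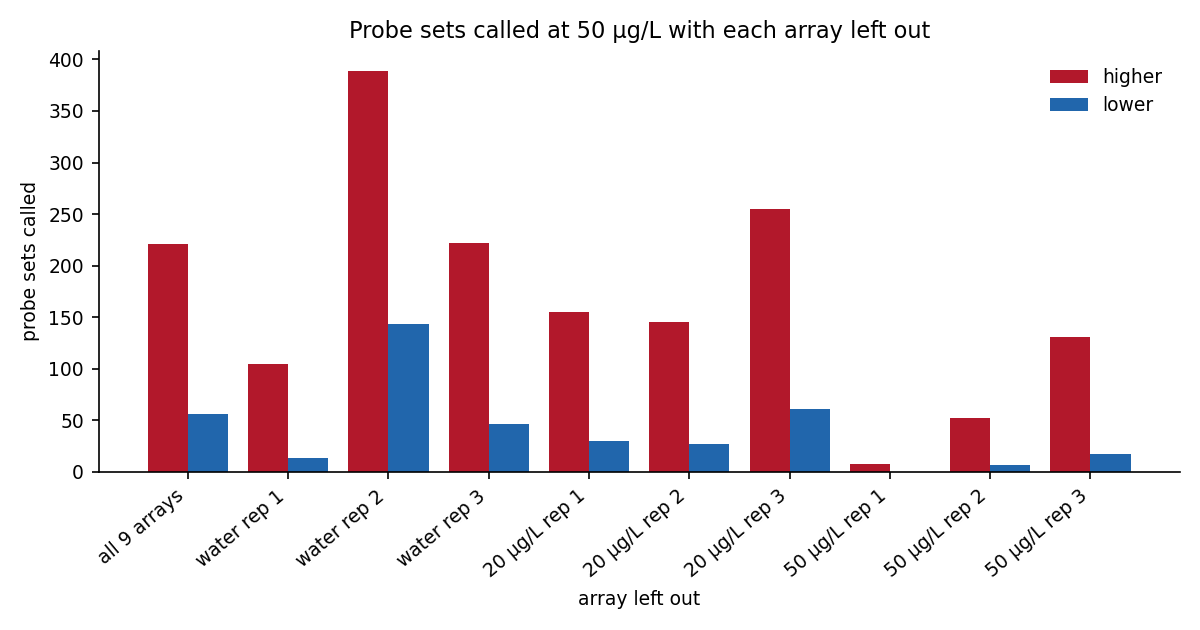
Number of probe sets called higher (red) and lower (blue) at 50 µg/L against water (vertical axis) with all 9 arrays and with each array left out in turn (horizontal axis). The bars fall from 221 and 56 to 8 and 0 without 50 µg/L replicate 1 and rise to 389 and 143 without water replicate 2.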

How the data were processed

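Total RNA of whole embryos was labelled with biotin (8 µg per sample, per the labels' protocols) and hybridised to Affymetrix arrays, 1 sample per array. The deposited table holds linear intensity values, 1 for every probe set on every array, which the authors made with GCOS and MAS5, per the submitters' processing notes, without versions in the sources used here. With 2% trimmed from both ends, the deposited intensity values of an array averaged 500.1 or 500.2. Scanner images and detection calls were not used here. The arrays numbered 3 carry more decimals than the other 6, which was treated as a possible export batch that holds every group. Columns of no sample numbered 0, and 0 pairs of arrays held identical values.

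From these values log2(value + 1) was computed for 15502 probe sets, after 115 control probe sets were left out. No filter on low values and no further normalization were applied. A linear model with 1 mean per group covered all 9 arrays and was run in R 4.3.3 with the package limma 3.58.1 (eBayes with an intensity trend), two-sided, with Benjamini-Hochberg adjustment over all 15502 probe sets and a threshold of 0.05. The script was tested on simulated data. Symbols came from the platform annotation, updated through gene identifiers: 10795 probe sets had 1 gene, 135 several and 4572 none, and a gene was represented by its probe set with the highest mean log2 signal (alternative for list medians: the mean of its probe sets). No build or coordinates were used.

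Gene lists (31 by hand, 27 families by symbol pattern) and named genes were chosen with earlier results of these data known, so no list was tested. Named genes were the 20 largest rises and falls without overlap and with the higher group above the tag control level, up to 4 called genes per direction and list, and a set of genes by name. Further list members and other calls in the text were named after their values were seen. A planned search of promoters for a HIF motif was not run, as no promoter sequences were at hand.

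Alternatives were a filter on the lowest 40% or 60% of probe sets, an offset of 32, raising dim values to the level of the tag controls, quantile normalization, median centring, 6 arrays only, array weights, other variance settings, blocks, and each array left out. The replicate numbers were not used as pairs.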

Additional observations from a re-analysis of the deposited data

How the results depend on the processing

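The 221 higher and 56 lower calls became 321 and 96 when the dimmest 40% of probe sets were removed, 231 and 103 when the dimmest 60% were, 710 and 207 with dim values set to tag control level and 539 and 178 with array weights. They became 111 and 90 with median centring and 141 and 19 with only the 6 arrays of the groups compared. With no intensity trend both numbers were 0, with 1495 and 873 probe sets at an unadjusted p under 0.05. With 1 array left out they ran from 8 to 389 and from 0 to 143. With an offset of 32 they were 317 and 68, under quantile normalization 161 and 73 and with a robust trend 273 and 66. The export format as a block gave 263 and 75, and only the arrays deposited with 1 decimal gave 237 and 59. Counts near the main ones need not be of the same probe sets. With only the arrays deposited with 1 decimal, 167 of the 221 higher and 31 of the 56 lower calls were kept. With the replicate number as a block there were 167 and 38. Same-numbered exposed and water arrays had correlations of their deviations from the group means of 0.01, 0.11 and 0.05, so the numbers were not taken to pair the samples. The cause of these changes was not tested.

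Of 84 named genes called, 84 kept the call with the export format as a block, 75 under quantile normalization, 69 with median centring, 70 with the replicate block and 57 with 6 arrays. With only the arrays deposited with 1 decimal, 67 kept it. Without 50 µg/L replicate 1 the number was 4 (btg4, cldnd, nanog and p4ha1b), and without the intensity trend 0. None of the 84 reversed its direction under the 22 settings. As their groups did not overlap, leaving an array out could not reverse one. Filters and variance settings leave the log2 change as it is, so this says little of how stable the calls are. Low signal limits what could pass: the median standard error of the log2 change was 0.97 in the dimmest bin of probe sets and 0.28 in the brightest.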
